A study of Rattus norvegicus with 2 samples.

Results

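Interferon regulatory factors (Irf) and guanylate-binding proteins (Gbp) were followed across the cell clusters of neonatal rat hearts after 2 h of lipopolysaccharide (LPS). The group held 8 genes taken by symbol from a list of 25399: *Irf1* (ENSRNOG00000008144), *Irf2* (ENSRNOG00000009824), *Irf3* (ENSRNOG00000043388), *Irf5* (ENSRNOG00000007437), *Irf8* (ENSRNOG00000017869), *Gbp2* (ENSRNOG00000031743), *Gbp4* (ENSRNOG00000028768) and *Gbp5* (ENSRNOG00000032240). Cardiac cells of Sprague-Dawley rats aged 1-3 days, males and females pooled, were separated on Percoll to enrich intrinsic cardiac adrenergic (ICA) cells and kept for 2 h with LPS at 1 µg/mL or with saline as the control. Each condition gave 1 library of the 10X Genomics 3′ kind, so no difference between the conditions has a replicate check and none could be tested. All intervals are at 95% and cover counting error only. A level is the sum of a gene's unique molecular identifiers (UMIs) in a cluster per 1000000 UMIs of that cluster (CPM). The clusters carry the numbers and names that the authors gave them.

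The Irf proteins are transcription factors that bind interferon-response elements in DNA. IRF3 and IRF5 wait in the cytoplasm and are activated by phosphorylation downstream of Toll-like and other innate receptors, IRF1 is made in response to interferon and NF-kappaB signals, IRF2 competes with IRF1 for the same elements, and IRF8 is a lineage factor of myeloid cells. The Gbp proteins are interferon-induced GTPases that coat intracellular bacteria and LPS and help inflammatory caspases to detect them.

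The RefSeq promoter table for the rat build GRCr8 held 7 of the 8 genes by symbol. The 250 bases before the start are shown for the 3 Gbp genes, whose levels were higher together with LPS, and for *Irf1* and *Irf8*, whose levels in macrophages went opposite ways. All are read 5′ to 3′ on the plus strand. Capitals mark matches, on either strand, to an ISRE-type repeat (GAAANNGAAA), to a GAS element (TTCNNNGAA) or to the kappaB consensus. The windows are chr10:38417685-38417934 for *Irf1*, chr19:65699034-65699283 for *Irf8*, chr2:234005477-234005726 for *Gbp2*, chr2:233978236-233978485 for *Gbp4* and chr2:233910749-233910998 for *Gbp5*.
Irf1: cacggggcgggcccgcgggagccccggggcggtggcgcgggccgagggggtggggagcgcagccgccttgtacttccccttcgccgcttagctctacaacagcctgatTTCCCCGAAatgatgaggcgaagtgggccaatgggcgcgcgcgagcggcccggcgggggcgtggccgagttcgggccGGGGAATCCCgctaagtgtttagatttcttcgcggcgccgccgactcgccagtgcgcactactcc
Irf8: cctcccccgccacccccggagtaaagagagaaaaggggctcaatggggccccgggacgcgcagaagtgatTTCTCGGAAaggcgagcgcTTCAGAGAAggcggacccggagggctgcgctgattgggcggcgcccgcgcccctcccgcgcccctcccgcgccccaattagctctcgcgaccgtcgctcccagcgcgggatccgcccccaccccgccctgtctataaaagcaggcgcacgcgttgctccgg
Gbp2: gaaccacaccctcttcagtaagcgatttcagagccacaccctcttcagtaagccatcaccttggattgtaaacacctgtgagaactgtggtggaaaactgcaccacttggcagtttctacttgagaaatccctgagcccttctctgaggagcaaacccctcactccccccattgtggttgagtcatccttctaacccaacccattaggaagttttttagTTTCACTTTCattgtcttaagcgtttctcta
Gbp4: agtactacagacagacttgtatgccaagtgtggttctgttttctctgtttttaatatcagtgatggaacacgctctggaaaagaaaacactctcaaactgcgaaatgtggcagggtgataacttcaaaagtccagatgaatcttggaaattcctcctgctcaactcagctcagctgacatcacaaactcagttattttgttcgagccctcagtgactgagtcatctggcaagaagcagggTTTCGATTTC
Gbp5: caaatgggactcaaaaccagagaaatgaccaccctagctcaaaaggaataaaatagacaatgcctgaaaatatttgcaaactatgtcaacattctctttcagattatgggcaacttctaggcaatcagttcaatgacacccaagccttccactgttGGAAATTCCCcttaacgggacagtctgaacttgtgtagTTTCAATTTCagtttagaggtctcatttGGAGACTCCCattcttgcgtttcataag

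Each of the 3 Gbp windows held 1 ISRE-type repeat, from base -31 to base -22 before the start in *Gbp2*, from -10 to -1 in *Gbp4* and from -56 to -47 in *Gbp5*. This repeat was found in 1312 of 33469 rat promoters (3.92%), counted over windows of 300 bases that also hold the first 50 bases after the start. *Gbp5* also held 2 kappaB matches before its start, at -94 to -85 and at -28 to -19, and 84 of all promoters (0.251%) had both motifs. *Irf1* held a GAS match at -142 to -134 and a kappaB match at -65 to -56, and *Irf8* held GAS matches at -180 to -172 and at -161 to -153. No match overlapped another. Of all promoters, 8.87% had a GAS match and 7.51% a kappaB match. The *Irf3* window held a kappaB match at -29 to -20, and the *Irf5* window held no match to the 3 motifs. A match is a description of the letters in the window. In the RefSeq annotation the Gbp genes lie side by side on chromosome 2 in the order *Gbp5*, *Gbp7*, *Gbp4*, *Gbp2* and, after a non-coding gene, *Gbp1*. They are related copies whose reads the counting could split or share, and *Gbp1* is not among the listed symbols, so the level of each single Gbp gene is uncertain to that extent.

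The control library held 11531 cells with a median of 12479 UMIs per cell, and the LPS library held 12689 cells with a median of 9432. The libraries shared 194 cell barcodes. Clusters 0, 1 and 7 (named Fibroblast), 4 and 5 (Endothelial) and 6 (Macrophages) each had the markers of their name as their highest list apart from the fibroblast genes, which were present everywhere. Cluster 3 (ICA and Cardiomyocyte) had summed cardiomyocyte markers at 9947 CPM in control and 10558 CPM in LPS cells, and ICA markers (*Th*, *Dbh*, *Ddc*, *Pnmt*) at 75.2 and 81.9 CPM. Clusters 2, 8, 9 and 10 were left unnamed by the authors and are called by number. Fibroblast markers outside the fibroblast clusters and cluster 9 stood at 22.3% to 57.0% of their level in cluster 0, endothelial markers outside clusters 4 and 5 at 3.23% to 11.4% of their level in cluster 4, and macrophage markers outside cluster 6 at 0.25% to 1.11% of their level in cluster 6. These shares serve below as a rough guide to the level that RNA from other cells can reach, which was not measured directly. The clusters were made from the same counts, so differences between clusters are descriptions.

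With LPS, *Gbp5*, *Gbp2* and *Irf1* were higher in each of the 8 clusters with the most cells (0 to 7), with every interval of the ratio above 1. In cluster 3 the LPS level of *Gbp2* was close to the share that endothelial markers reached there. RNA from other cells was not separated for *Gbp2* or *Gbp5*. *Irf3* had intervals that include 1 in all 11 clusters. *Irf5*, *Irf8* and *Irf2* went both ways: the level of each was lower in the macrophages of cluster 6 and higher in the pooled cells of the other clusters. *Gbp4* had an interval above 1 in 7 of these 8 clusters, and in cluster 7 the interval included 1. In clusters 2 and 3, with 10 and 8 LPS UMIs, its LPS level could not be told apart from RNA of other cells.

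**Figure D1:**
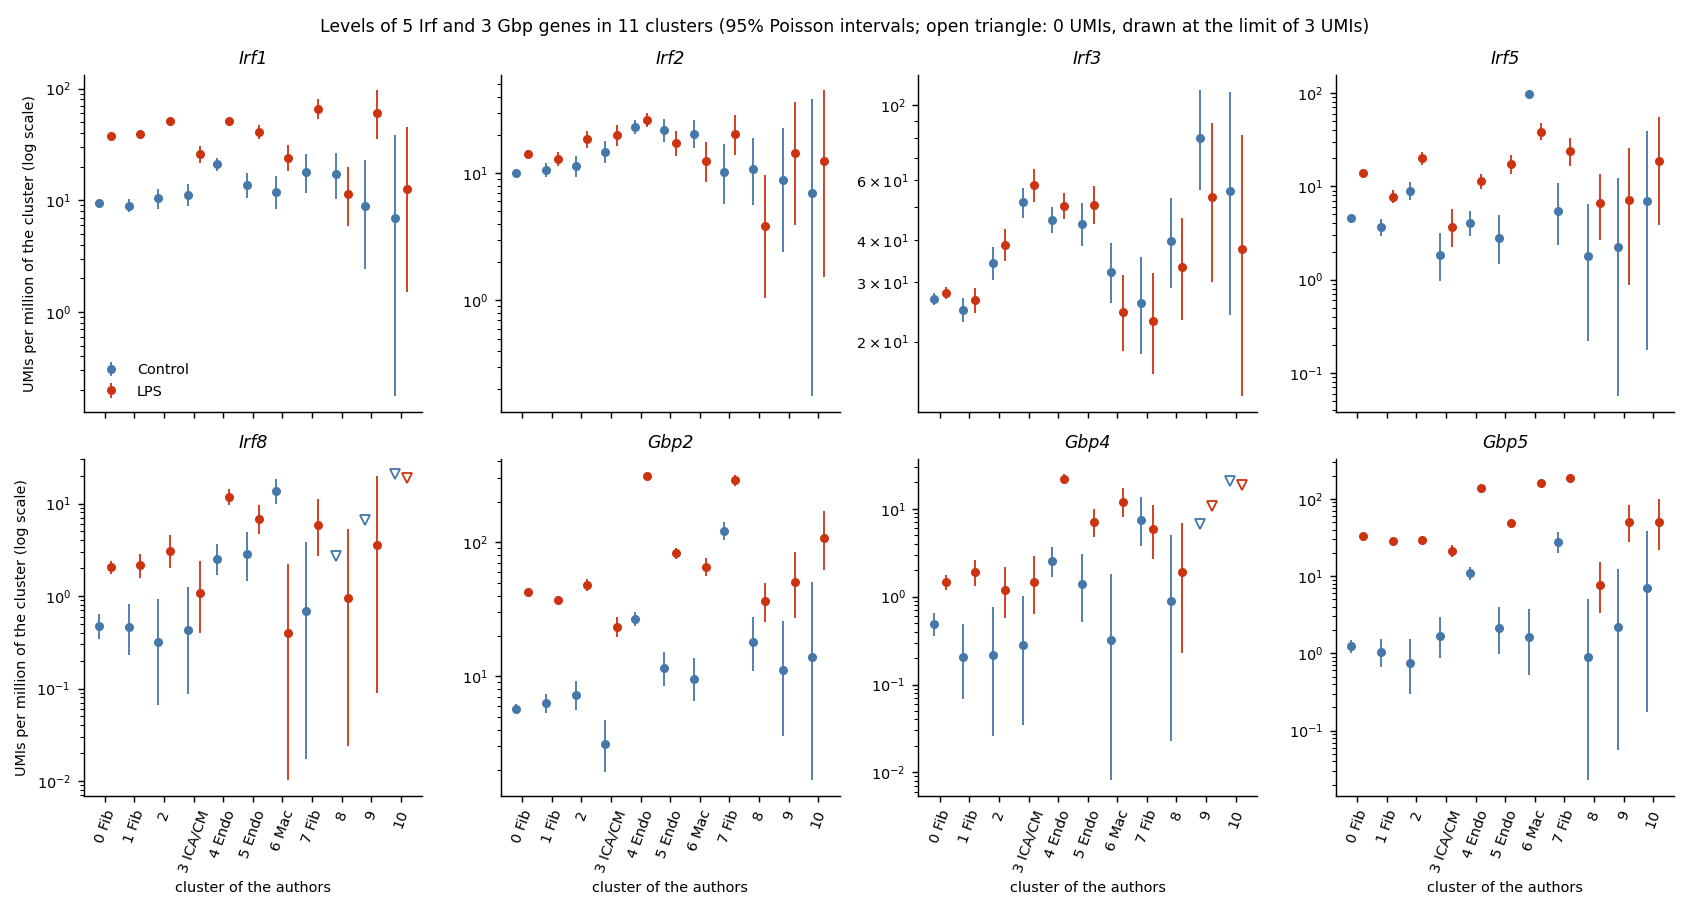
Level of each of the 8 genes (CPM, log scale) in the 11 clusters of the control (blue) and LPS (red) libraries, with 95% Poisson intervals, and open triangles for 0 UMIs drawn at the limit of 3 UMIs. The LPS points stand above the control points for *Irf1*, *Gbp2* and *Gbp5* in clusters 0 to 7, and the order turns for *Irf5* and *Irf8* in cluster 6.

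A gene was counted as tested in a cluster when both libraries together gave at least 50 UMIs there, and as higher or lower when its log2 ratio, with 0.5 UMI added to each sum, was at least 1 or at most -1. In cluster 0, all 8 genes were tested, with 6 higher and 0 lower, against 3.43% and 9.01% of 12247 tested genes. In cluster 4 it was also 6 of 8 higher and 0 lower, against 2.63% and 4.02% of 9492 genes. In macrophages 6 genes were tested (*Irf8* and *Gbp4* fell short of 50 UMIs), of which 3 were higher, against 4.81% of 6385 genes, and 1 (*Irf5*) was lower, against 12.1%. The minimum itself shaped this count, since all 3 higher genes had fewer than 50 control UMIs and passed it through their LPS cells. Control and LPS UMIs were 37 and 60 for *Irf1*, 30 and 162 for *Gbp2* and 5 and 396 for *Gbp5*. *Irf1* was just past the call, with a log2 ratio of 1.02. *Irf8* (43 and 1 UMIs) and *Gbp4* (1 and 30 UMIs) did not pass. In cluster 0 *Irf8* and *Gbp4* (43 and 44 control UMIs) also passed only with their LPS UMIs. The same held in cluster 4 for *Irf5*, *Irf8* and *Gbp4* (45, 28 and 28 control UMIs). The counts are thus descriptions.

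The remaining clusters had fewer tested members, since a gene with few control UMIs passes the minimum only where its LPS level is high. No tested member was lower there. The higher members were 5 of 7 in cluster 1 (3.22% of all tested genes higher and 4.99% lower), 4 of 6 in cluster 2 (2.83% and 4.17%), 3 of 5 in cluster 3 (1.68% and 1.67%), 4 of 6 in cluster 5 (4.19% and 4.41%) and 3 of 4 in cluster 7 (4.56% and 3.37%). In clusters 8 and 9, with 2 and 1 tested members, none was called higher (2.35% of all tested genes higher and 1.52% lower in cluster 8, 2.69% and 2.57% in cluster 9). *Gbp2* in cluster 8 was just short of the call, at 18.0 and 36.2 CPM, a ratio of 2.01 (1.14 to 3.65) and a log2 ratio of 0.99 with the added 0.5 UMI. No member reached 50 UMIs in cluster 10 (3.52% and 0.971%). Over all tested genes the median log2 ratio was -0.13 in cluster 0, -0.09 in cluster 4 and -0.30 in cluster 6.

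**Figure D2:**
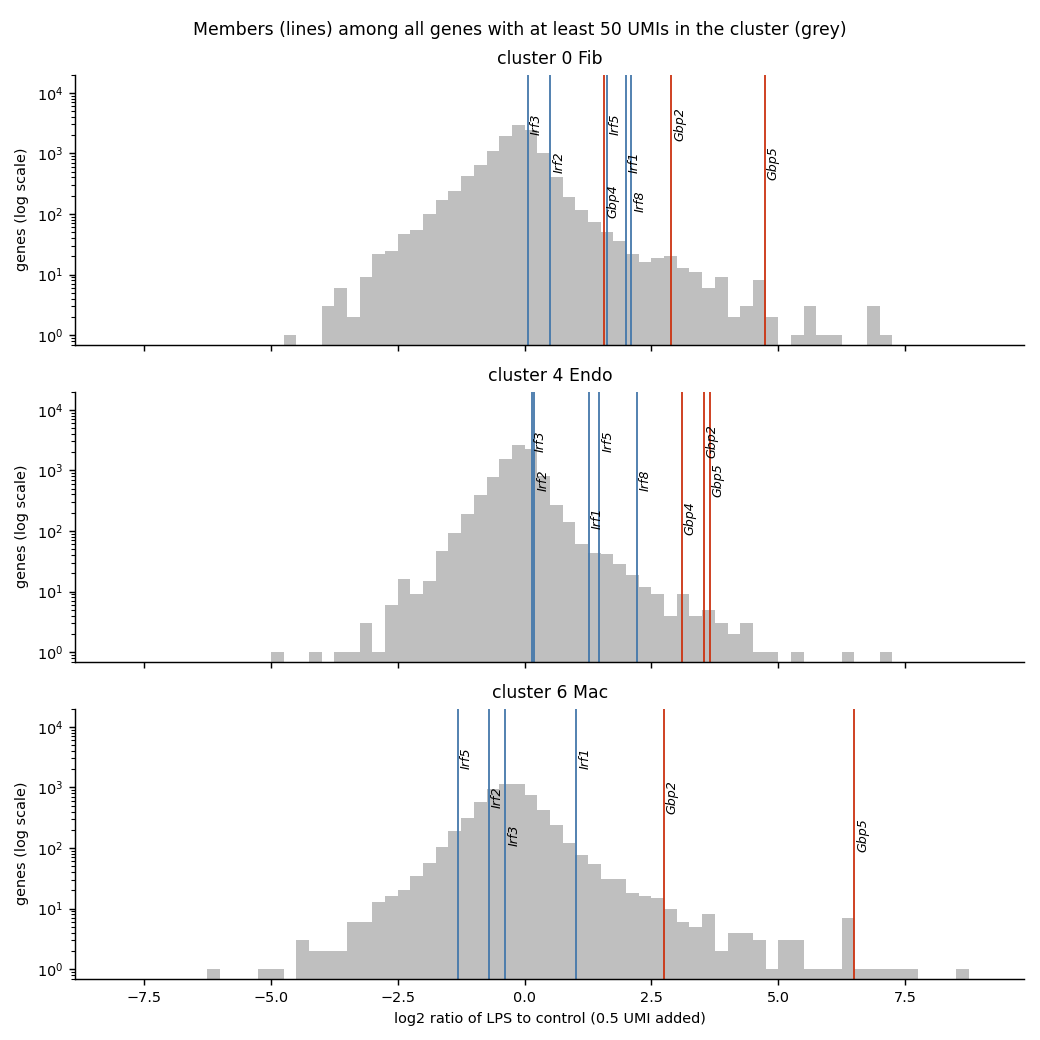
Number of genes (log scale) by log2 ratio of LPS to control, with 0.5 UMI added to each sum, among all genes with at least 50 UMIs in clusters 0, 4 and 6 (grey), with the tested Irf genes as blue and Gbp genes as red lines. *Gbp5* lies in the far right tail in all 3 clusters, at 4.73, 3.65 and 6.50, and *Irf5* lies left of the bulk in cluster 6 at -1.31.

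*Irf3* encodes the factor that Toll-like receptor 4 activates through its TRIF branch, and its transcript hardly differed between the libraries. In cluster 0 it stood at 26.7 CPM in control and 27.9 CPM in LPS cells, a ratio of 1.04 (0.985 to 1.11). In cluster 4 it stood at 45.9 and 50.4 CPM, and in macrophages at 32.1 and 24.5 CPM, a ratio of 0.764 (0.547 to 1.06). Over all cells the ratio was 1.06 (1.02 to 1.11). Among the clusters with more than 100 cells, the level was highest in cluster 3, at 51.6 CPM in control and 58.0 CPM in LPS cells, with clusters 4 and 5 close behind. In the control library the interval of the ratio between neighbours in this order, clusters 3 and 4 and clusters 4 and 5, included 1.

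*Irf1*, the interferon- and NF-kappaB-inducible activator, had its highest control level in cluster 4. Neighbours in the order of the control levels did not differ beyond counting error, but clusters further apart did, with cluster 4 at 222% (191 to 256) of cluster 0. Its level was 9.49 CPM in control and 37.8 CPM in LPS cells of cluster 0, a ratio of 3.98 (3.69 to 4.30). In endothelial cluster 4 it went from 21.0 to 50.7 CPM, a ratio of 2.41 (2.06 to 2.83). In macrophages it went from 11.9 CPM (37 UMIs) to 24.1 CPM (60 UMIs), a ratio of 2.03 (1.33 to 3.15). The ratio in macrophages was thus 0.510 (0.336 to 0.774) of that in cluster 0 and 0.842 (0.543 to 1.31) of that in cluster 4. In sums thinned to 3000 UMIs per cell, *Irf1* had 2 control and 12 LPS UMIs in 281 and 290 macrophages. In 6600 and 7024 cells of cluster 0 it had 169 and 802 UMIs. The macrophage ratio was then not below that of cluster 0, so this order depends on how depth is handled. The LPS level of macrophages was 63.9% (48.6 to 82.5) of that in cluster 0, where fibroblast markers in macrophages stood at 28.3%. The share of macrophages with an *Irf1* UMI depended on the depth of thinning. It was 2.14% in control and 2.06% in LPS cells at 1500 UMIs per cell. At 3000 UMIs it was 0.712% and 3.79%, and at 5000 UMIs 6.79% and 7.26%. With LPS, clusters 7, 9 and 2 had the highest levels, at 65.8, 60.8 and 51.1 CPM, and the intervals between these neighbours included 1. In cluster 8 *Irf1* stood at 17.1 CPM in control and 11.4 CPM in LPS cells, from 19 and 12 UMIs, with an interval that includes 1.

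*Irf2*, the factor that competes with IRF1, differed less than 2-fold in every cluster where it was tested. In cluster 0 it went from 9.99 to 14.2 CPM, a ratio of 1.42 (1.30 to 1.56), and in cluster 4 from 23.0 to 26.3 CPM, a ratio of 1.14 (0.957 to 1.36). In macrophages it was lower, 20.5 CPM (64 UMIs) in control and 12.5 CPM (31 UMIs) in LPS cells, a ratio of 0.607 (0.382 to 0.946). The ratio in macrophages was 0.456 (0.295 to 0.703) of the ratio in all other clusters together. In the control library the levels of clusters 4, 5 and 6 (23.0, 21.9 and 20.5 CPM) headed the order and did not differ from each other beyond counting error.

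**Figure D3:**
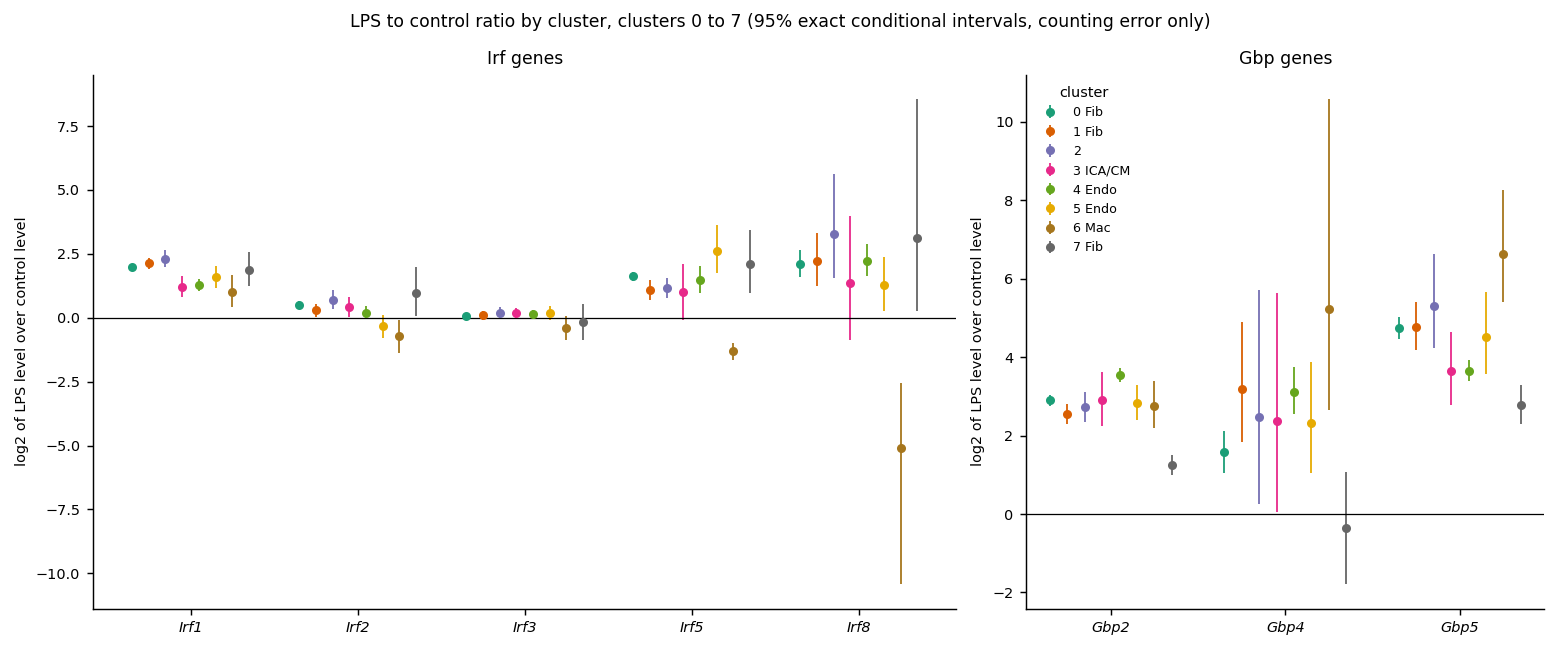
Log2 of the LPS level over the control level for the 5 Irf genes (left) and the 3 Gbp genes (right) in clusters 0 to 7, with exact conditional 95% intervals. Points for *Irf1*, *Gbp2* and *Gbp5* lie above 0 in all 8 clusters, and the macrophage points (brown) of *Irf2*, *Irf5* and *Irf8* lie below 0.

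*Irf5* encodes the factor that MyD88 signalling activates to drive inflammatory cytokine genes, and it was the clearest macrophage gene of the group in control cells. The control level was 96.3 CPM (85.7 to 108) in macrophages, from 300 UMIs, and 8.97 CPM in cluster 2, the next of the clusters. The ratio between these was 10.7 (8.41 to 13.8). With LPS the macrophage level was 38.6 CPM (31.3 to 47.2), from 96 UMIs, which was 2.49-fold lower (1.98 to 3.17).

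Outside macrophages *Irf5* went the other way, from 4.43 to 12.8 CPM over the other clusters together, a ratio of 2.89 (2.64 to 3.17). The ratio was 3.07 (2.73 to 3.45) in cluster 0, 2.79 (1.96 to 4.05) in cluster 4 and 6.15 (3.33 to 12.4) in cluster 5, where the level went from 2.82 to 17.4 CPM. In cluster 3 the level was 1.84 CPM in control and 3.65 CPM in LPS cells, with an interval that includes 1. The macrophage level remained the highest in the LPS library, but it exceeded that of cluster 7 (23.7 CPM) by only 1.63-fold (1.10 to 2.46). The LPS level of cluster 0 was 35.9% (29.1 to 44.7) of that in macrophages, while macrophage markers in cluster 0 stood at 0.448% of theirs. Without the cells that held a macrophage marker UMI, *Irf5* in cluster 0 went from 4.26 to 13.9 CPM, a ratio of 3.26 (2.80 to 3.81), and in cluster 5 from 0 UMIs, which allows up to 3, to 53 UMIs. The loss of cells was uneven. In cluster 0, 3880 of 6600 control and 5608 of 7030 LPS cells were kept, and in cluster 5, 192 of 350 and 326 of 443.

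The share of macrophages with an *Irf5* UMI showed the same difference. It was 174 of 281 cells (61.9%) in control and 76 of 291 cells (26.1%) in LPS cells. After each cell was thinned to 3000 UMIs, with 1 shallower LPS cell left out, it was 30.2% (24.9 to 36.0) and 11.7% (8.26 to 16.0), a difference of -18.5 percentage points (-25 to -11.9). In cluster 0 the thinned share was 1.48% in control and 4.23% in LPS cells.

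*Irf8*, the myeloid lineage factor, was close to undetected in macrophages with LPS. In control macrophages there were 43 UMIs in 37 of 281 cells, a level of 13.8 CPM (9.99 to 18.6). In LPS macrophages there was 1 UMI in 291 cells, a level of 0.402 CPM (0.0102 to 2.24). The ratio was 0.0291 (0.000721 to 0.171), so the upper end of the interval still placed the LPS level 5.84-fold lower. The sum of 44 UMIs was below the minimum of 50, so *Irf8* in macrophages was not among the tested genes. Thinned to 3000 UMIs, 4.27% (2.23 to 7.34) of control macrophages and 0 of 290 LPS macrophages held an *Irf8* UMI, which allows a share of up to 1.03%.

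Pooled over the other clusters, *Irf8* was higher with LPS. Over all clusters but 6 it went from 0.676 to 3.06 CPM, a ratio of 4.53 (3.63 to 5.70). The level in cluster 4 went from 2.52 CPM (28 UMIs) to 11.8 CPM (115 UMIs), a ratio of 4.69 (3.08 to 7.37), and in cluster 0 from 0.475 to 2.05 CPM, a ratio of 4.31 (3.05 to 6.20). Macrophages therefore headed the order in the control library, 4.89-fold (2.53 to 10.2) above cluster 5, and endothelial cluster 4 headed it in the LPS library, 1.73-fold (1.16 to 2.67) above cluster 5. Cluster 6 gave 29.9% of the *Irf8* UMIs of the control library and 0.260% of those of the LPS library. In LPS cells of cluster 0 *Irf8* stood at 17.3% (13.5 to 22.3) of its level in cluster 4, where endothelial markers in cluster 0 stood at 3.69%. In cluster 3 the *Irf8* ratio was 2.58 (0.552 to 16.0), an interval that includes 1. In cluster 5 it was 2.41 (1.20 to 5.16), but the share of cells thinned to 3000 UMIs was 1.43% in control and 1.38% in LPS cells.

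Other macrophage genes also differed within cluster 6, and their part in the *Irf5* and *Irf8* results was not tested. The 12 macrophage markers summed to 5928 CPM in control and 5021 CPM in LPS cells. Of these, 7 had an interval of the ratio below 1, 2 had an interval above 1 and 3 had an interval that includes 1. Genes in general were lower in this cluster, with a median log2 ratio of -0.30, and the share of all genes with such intervals was not computed. The M-CSF receptor gene *Csf1r* went from 237 to 32.2 CPM and the Fc receptor gene *Fcgr1a* from 353 to 129 CPM, while the LPS co-receptor gene *Cd14* went from 533 to 1536 CPM and *Cd68* stood at 496 and 531 CPM. Dendritic cell markers (*Flt3*, *Xcr1*, *Clec9a*, *Cd209a*, *Siglech*, *Ccr7*) were at 0 UMIs in control macrophages and at 1 UMI in LPS macrophages. The control and LPS libraries held 281 and 291 cells of cluster 6, and whether the same kinds of macrophage were captured in both cannot be told apart from a change within cells.

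**Figure D4:**
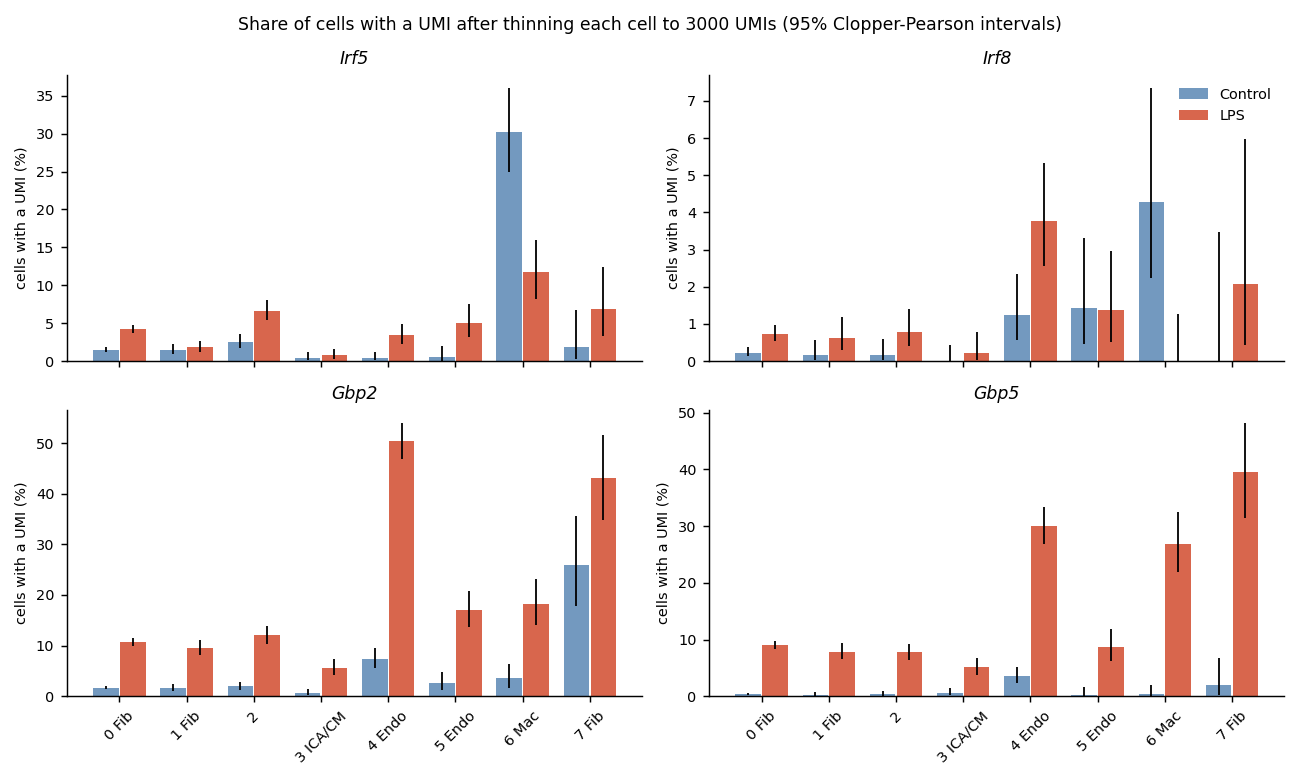
Share of cells with at least 1 UMI of *Irf5*, *Irf8*, *Gbp2* and *Gbp5* in clusters 0 to 7, after thinning every cell to 3000 UMIs, with 95% Clopper-Pearson intervals. Control bars (blue) are higher than LPS bars (red) in cluster 6 for *Irf5* and *Irf8*, and lower in all 8 clusters for *Gbp2* and *Gbp5*.

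*Gbp5*, which encodes a GTPase that promotes inflammasome assembly, had the highest ratio of the group over all cells. Over all cells it went from 2.18 CPM (333 UMIs) to 43.9 CPM (5601 UMIs), a ratio of 20.1 (18.0 to 22.5). The ratio was largest in macrophages, 99.2 (42.2 to 307), from 5 UMIs (1.61 CPM) to 396 UMIs (159 CPM). Cluster 2 came next at 39.2 (18.7 to 98.5), from 7 to 246 UMIs, and its interval overlapped that of macrophages. The ratio in cluster 0 was 26.6 (22 to 32.5), from 1.23 to 32.6 CPM, and in cluster 4 it was 12.6 (10.4 to 15.3), from 10.9 to 137 CPM. The macrophage ratio was 3.73 (1.51 to 9.20) times that of cluster 0 and 7.88 (3.20 to 19.4) times that of cluster 4.

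By its log2 ratio *Gbp5* was the 8th highest of 6385 tested genes in macrophages, the 14th of 12247 in cluster 0 and the 14th of 9492 in cluster 4. In macrophages the gene passed the minimum of 50 UMIs only through its LPS cells (5 control and 396 LPS UMIs), so that rank is a description. In the LPS library its level was highest in cluster 7 (187 CPM). It exceeded that of macrophages (159 CPM) 1.17-fold (1.00 to 1.37), which in turn exceeded that of cluster 4 (137 CPM) 1.16-fold (1.04 to 1.30). The LPS level in macrophages was 489% (438 to 544) of that in cluster 0 and 116% (104 to 130.2) of that in cluster 4, the clusters whose markers stood there at 28.3% and 11.4%. After thinning, 0.356% of control and 26.9% of LPS macrophages held a *Gbp5* UMI, a difference of 26.5 points (21.5 to 31.9). The difference in cluster 4 was 26.4 points (22.9 to 29.9), from 3.60% to 30.0%.

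*Gbp2*, a GTPase of the same family that is recruited to vacuoles holding bacteria, was highest in endothelial cluster 4 and fibroblast cluster 7 in the LPS library, at 311 and 289 CPM, a ratio of 1.08 (0.975 to 1.19) between them. By UMIs, cluster 0 held 36.9% and cluster 4 held 35.7% of the *Gbp2* UMIs of that library. In cluster 4 it went from 26.9 CPM (299 UMIs) to 311 CPM (3030 UMIs), a ratio of 11.6 (10.3 to 13.1). The ratio was 7.44 (6.77 to 8.18) in cluster 0, from 5.71 to 42.5 CPM, and 6.77 (4.56 to 10.4) in macrophages, from 9.63 to 65.2 CPM. The ratio of cluster 4 was 1.56 (1.34 to 1.81) times that of cluster 0, and the macrophage ratio was 0.910 (0.610 to 1.36) times that of cluster 0. The LPS level in macrophages was 20.9% (17.8 to 24.5) of that in cluster 4, where endothelial markers in macrophages stood at 11.4%. It was 153% (130.2 to 179.7) of that in cluster 0, with fibroblast markers at 28.3%. What RNA from both cell types together added was not tested, so the size of the difference in macrophages themselves is uncertain.

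The endothelial clusters differed between themselves. The LPS level of *Gbp2* in cluster 5 was 82.4 CPM, 26.5% (23.7 to 29.5) of that in cluster 4, although endothelial markers in cluster 5 stood at 72.0% of theirs. After thinning, 7.33% of control and 50.4% of LPS cells of cluster 4 held a *Gbp2* UMI, and 3.56% and 18.3% of macrophages. Unthinned, 638 of 823 LPS cells of cluster 4 (77.5%) held 1 and 242 held at least 5.

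*Gbp4*, the least abundant of the 3 GTPase transcripts by UMIs, was concentrated in cluster 4 with LPS. It went there from 28 UMIs (2.52 CPM) to 213 UMIs (21.9 CPM), a ratio of 8.69 (5.85 to 13.4), and these were 47.4% of the *Gbp4* UMIs of the LPS library. In macrophages it went from 1 UMI (0.321 CPM) to 30 UMIs (12.1 CPM), a ratio of 37.6 (6.25 to 1534). In the LPS library cluster 4 exceeded macrophages 1.81-fold (1.23 to 2.75) and macrophages exceeded cluster 5 (7.03 CPM) 1.72-fold (1.01 to 2.92). In cluster 0 it went from 0.486 to 1.45 CPM, a ratio of 2.98 (2.08 to 4.34), and this LPS level was 6.63% (5.21 to 8.40) of that in cluster 4, with endothelial markers at 3.69%. In clusters 2 and 3 the LPS levels were 5.44% (2.57 to 10.2) and 6.67% (2.84 to 13.4) of that in cluster 4, from 10 and 8 UMIs. Endothelial markers stood at 5.59% and 6.71%, within these intervals. *Gbp4* there could thus not be told apart from RNA of other cells.

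Cluster 7, a fibroblast cluster with 104 control and 144 LPS cells, already held *Gbp2* transcripts without LPS. In the control library *Gbp2* stood at 121 CPM there, 4.51-fold (3.72 to 5.45) above cluster 4, and *Gbp5* at 27.4 CPM, 2.52-fold (1.72 to 3.63) above cluster 4. With LPS *Gbp2* went to 289 CPM, a ratio of 2.38 (2.00 to 2.85), and *Gbp5* to 187 CPM, a ratio of 6.82 (4.88 to 9.75). *Gbp4* had 11 control and 9 LPS UMIs in this cluster, a ratio of 0.786 (0.288 to 2.09). A single control cell held 55 of the 177 *Gbp2* UMIs, 15 of the 40 *Gbp5* UMIs and 5 of the 11 *Gbp4* UMIs. Without it the control levels were 85.8 CPM for *Gbp2* and 17.6 CPM for *Gbp5*, the ratios 3.36 (2.75 to 4.15) and 10.6 (7.05 to 16.7), and the *Gbp4* ratio 1.40 (0.446 to 4.79). The control level then exceeded that of cluster 4 by 3.19-fold (2.57 to 3.96) for *Gbp2* and 1.62-fold (1.01 to 2.50) for *Gbp5*. After thinning, 26.0% of control and 43.1% of LPS cells of cluster 7 held a *Gbp2* UMI, so the high control level of *Gbp2* was spread over many cells. For *Gbp5* the control share was 2 of 104 cells (1.92%, 0.234 to 6.77), an interval that includes the 3.60% of cluster 4. The LPS share was 39.6%. In thinned sums cluster 4 had the highest control level of *Gbp5*. The log2 ratio in cluster 7 was then 4.50, beside 2.75 for the full sums. The thinned control sum of cluster 7 was only 2 UMIs, and the cause of this difference was not tested.

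Compared with cluster 0, the LPS-to-control ratio in cluster 7 was lower for all 3 Gbp genes, 0.320 (0.263 to 0.390) for *Gbp2*, 0.263 (0.102 to 0.680) for *Gbp4* and 0.256 (0.175 to 0.376) for *Gbp5*. For *Irf1* it was 0.928 (0.599 to 1.44) and for *Irf5* 1.41 (0.650 to 3.06), with intervals that include 1. Without the single control cell the values were 0.452 (0.363 to 0.564) for *Gbp2*, 0.400 (0.254 to 0.627) for *Gbp5* and 0.470 (0.158 to 1.40) for *Gbp4*, whose interval then included 1. In sums thinned to 3000 UMIs per cell, *Gbp5* had 2 control and 78 LPS UMIs in 104 and 144 cells of cluster 7. In 6600 and 7024 cells of cluster 0 it had 25 and 691 UMIs. The lower ratio of *Gbp5* in cluster 7 was thus not seen in thinned sums, which hold few control UMIs. The genes may have been among those from which the cluster was made, so the levels of cluster 7 are a description.

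Cluster 3 holds cardiomyocytes and the ICA cells that the study set out to examine. Of its 5 tested members 3 were at least 2-fold higher, beside 1.68% of all tested genes. Of these, *Gbp2* and *Gbp5* (22 and 12 control UMIs in cluster 3) passed the minimum only with their LPS UMIs. Cardiomyocyte markers summed to 9947 CPM there in control cells and ICA markers to 75.2 CPM. The values thus describe the whole cluster and not the ICA cells. *Irf1* went from 11.2 to 25.7 CPM, a ratio of 2.31 (1.74 to 3.08), *Gbp2* from 3.11 to 23.4 CPM, a ratio of 7.51 (4.76 to 12.4), and *Gbp5* from 1.70 to 21.2 CPM, a ratio of 12.5 (6.88 to 24.9). The LPS level of *Gbp2* was 7.5% (6.24 to 8.96) of that in cluster 4, an interval that includes the 6.71% of endothelial markers. It was 55.0% (45.7 to 65.6) of that in cluster 0, where fibroblast markers stood at 33.1%. *Gbp5* stood at 64.9% (53.4 to 78.2) and *Irf1* at 68.1% (57.1 to 80.7) of the level in cluster 0. *Gbp5* also stood at 15.5% (12.7 to 18.7) of the level in cluster 4. What RNA from both cell types together added was not tested, so higher levels in the cells of cluster 3 themselves are uncertain. *Irf5* stood at 26.3% (16 to 40.9) of the level in cluster 0, an interval that includes the 33.1% of fibroblast markers. It could thus not be told apart from RNA of other cells.

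The genes with the most similar pattern to each member were found by Pearson's r of log2(CPM + 1) over the 22 values of 11 clusters and 2 libraries, among 9896 genes. The 22 values share 2 libraries and differ in depth, so r is a description. *Gbp2* was most like *Isg15* (0.932), *Rtp4* (0.929) and *Gbp5* (0.909), and *Gbp5* was most like *Rtp4* (0.923), *Gbp2* (0.909) and *Rsad2* (0.905). *Isg15*, *Rtp4* and *Rsad2* are, like the Gbp genes, known interferon-stimulated genes. *Irf1* was most like *Tap1* (0.911), the peptide transporter of antigen presentation, then *Fip1l1* (0.841) and *Rarb* (0.840). *Irf5* was most like *P2ry2* (0.904), *Runx1* (0.879) and *Rassf4* (0.856), and *Irf8* was most like the GTPase gene *Ifi47* (0.823), then *Slc7a7* (0.786) and *Ccdc137* (0.772). *Irf2* was most like *Lgals9* (0.752), *Utp4* (0.743) and *Arhgap8* (0.730), *Irf3* most like *Herc2* (0.842), *Smarcad1* (0.832) and *Heca* (0.829), and *Gbp4* most like *N4bp1* (0.828), the unnamed gene AABR07018078.1 (0.816) and *Mettl6* (0.798). Among the members themselves r was 0.91 for *Gbp2* with *Gbp5*, 0.78 for *Irf1* with *Gbp5*, 0.73 for *Irf1* with *Gbp2* and -0.40 for *Irf3* with *Irf5*.

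The remaining genes of both families gave the following levels. *Gbp7* went from 254 to 1132 UMIs over all cells, a ratio of 5.33 (4.65 to 6.13), and in cluster 4 from 1.26 to 15.9 CPM, a ratio of 12.7 (7.32 to 23.7). *Gbp6* had 19 control and 44 LPS UMIs and *Gbp3* had 0 and 4. *Irf7*, the interferon-induced amplifier of the type I response, went from 6.15 to 11.9 CPM in cluster 0, a ratio of 1.93 (1.73 to 2.15), and from 24.7 to 46.6 CPM in cluster 4, a ratio of 1.89 (1.62 to 2.2), but stood at 26.0 and 22.9 CPM in macrophages, a ratio of 0.882 (0.617 to 1.25). *Irf9*, the DNA-binding part of the ISGF3 complex, had a ratio of 1.62 (1.49 to 1.76) over all cells. *Irf4* had 9 control and 2 LPS UMIs. The Irf-binding corepressor genes *Irf2bp1*, *Irf2bp2* and *Irf2bpl* had ratios over all cells of 1.03 (0.984 to 1.08), 0.476 (0.361 to 0.622) and 0.744 (0.666 to 0.829).

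The genes around this group were taken from 6 lists, described by counts of genes at least 2-fold higher or lower and by the median log2 ratio. Over all tested genes, 3.43% were higher and 9.01% lower in cluster 0 (median -0.13), 2.63% and 4.02% in cluster 4 (median -0.09) and 4.81% and 12.1% in macrophages (median -0.30). Other interferon-inducible GTPases and Gbp genes had 6 of 7 tested genes higher and 1 lower in cluster 0 (median 1.79) and 6 of 6 higher in cluster 4 (median 1.97). In macrophages the single tested gene of this list, *Ifi47*, was lower, 22.8 CPM in control and 7.24 CPM in LPS cells, a ratio of 0.318 (0.178 to 0.539), while it went from 1.02 to 7.16 CPM with LPS in cluster 0 and reached 37.9 CPM in cluster 4 from 4.58. Its directions were those of *Irf8*. Below 50 UMIs, 3 other genes of this list had intervals above 1 in macrophages, *Gbp7* from 2 to 24 UMIs (15.0, 3.73 to 131), *Mx2* from 8 to 31 UMIs (4.86, 2.18 to 12.2) and *Mx1* from 8 to 17 UMIs (2.66, 1.09 to 7.13). The list of other Irf genes and their partners had 0 of 4 tested genes past 2-fold in macrophages (median -0.17) and 0 of 5 in cluster 4. Its median in cluster 4 was 0.87, above the -0.09 of all tested genes. In cluster 0, 2 of 8 tested genes of this list were higher and 1 lower (median 0.32). *Batf*, a partner of IRF8 and IRF4, stood at 0.608 and 5.36 CPM in cluster 0 and at 27.0 and 41.0 CPM in macrophages.

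Interferon-stimulated genes had 19 of 30 tested genes higher in cluster 0 (median 1.63), 17 of 26 in cluster 4 (median 1.46) and 9 of 17 in macrophages (median 1.12), beside 3.43%, 2.63% and 4.81% of all tested genes, with none 2-fold lower in these 3 clusters. In macrophages the list was led by the chemokine gene *Cxcl10*, from 0.321 to 71.2 CPM, the oligoadenylate synthetase-like gene *Oasl*, from 24.4 to 987 CPM, and viperin (*Rsad2*), from 0.963 to 40.6 CPM. Among interferon ligands, receptors and transducers, 3 of 12 were higher in cluster 0, 3 of 11 in cluster 4, and 2 of 10 in macrophages, where 2 were lower (beside 4.81% and 12.1% of all tested genes). The kinase gene *Jak2* went from 25.0 to 98.6 CPM in macrophages and reached 189 CPM from 19.0 in cluster 0, a ratio of 10.0 (9.51 to 10.5). *Stat2* went from 18.6 to 45.1 CPM in macrophages, and the type I receptor gene *Ifnar1* from 60.7 to 27.0 CPM. The ligand genes *Ifnb1*, *Ifng* and *Ifna4* had 0 UMIs in both libraries, which allows up to 0.0197 CPM in control and 0.0235 CPM in LPS cells.

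Genes of LPS sensing and Irf activation had 1 of 14 tested genes higher in cluster 0 (median 0.09), 0 of 13 in cluster 4 (median 0.08), and 2 of 9 higher and 2 lower in macrophages (median -0.17, beside -0.30 over all tested genes). The higher macrophage genes were *Cd14* and *Tank*, an adaptor of the kinase TBK1, at 18.3 and 51.9 CPM, and *Irak4*, a kinase of the MyD88 pathway, stood at 17.0 and 4.83 CPM. Genes of the inflammasomes with which Gbp proteins act had 2 of 6 higher and 2 lower in macrophages (median -0.73). *Nlrp3* went from 5.78 to 135 CPM and *Il1b* from 38.2 to 7919 CPM, and *Pycard*, the adaptor ASC, from 103 to 18.9 CPM. In cluster 0 only *Il1b* of 6 tested genes of this list was 2-fold higher, and in cluster 4 *Il1b* and *Casp4* of 5. In LPS cells macrophage markers stood at 0.448% of their macrophage level in cluster 0 and at 0.440% in cluster 4. What RNA from macrophages added to *Il1b* there was not tested.

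**Figure D5:**
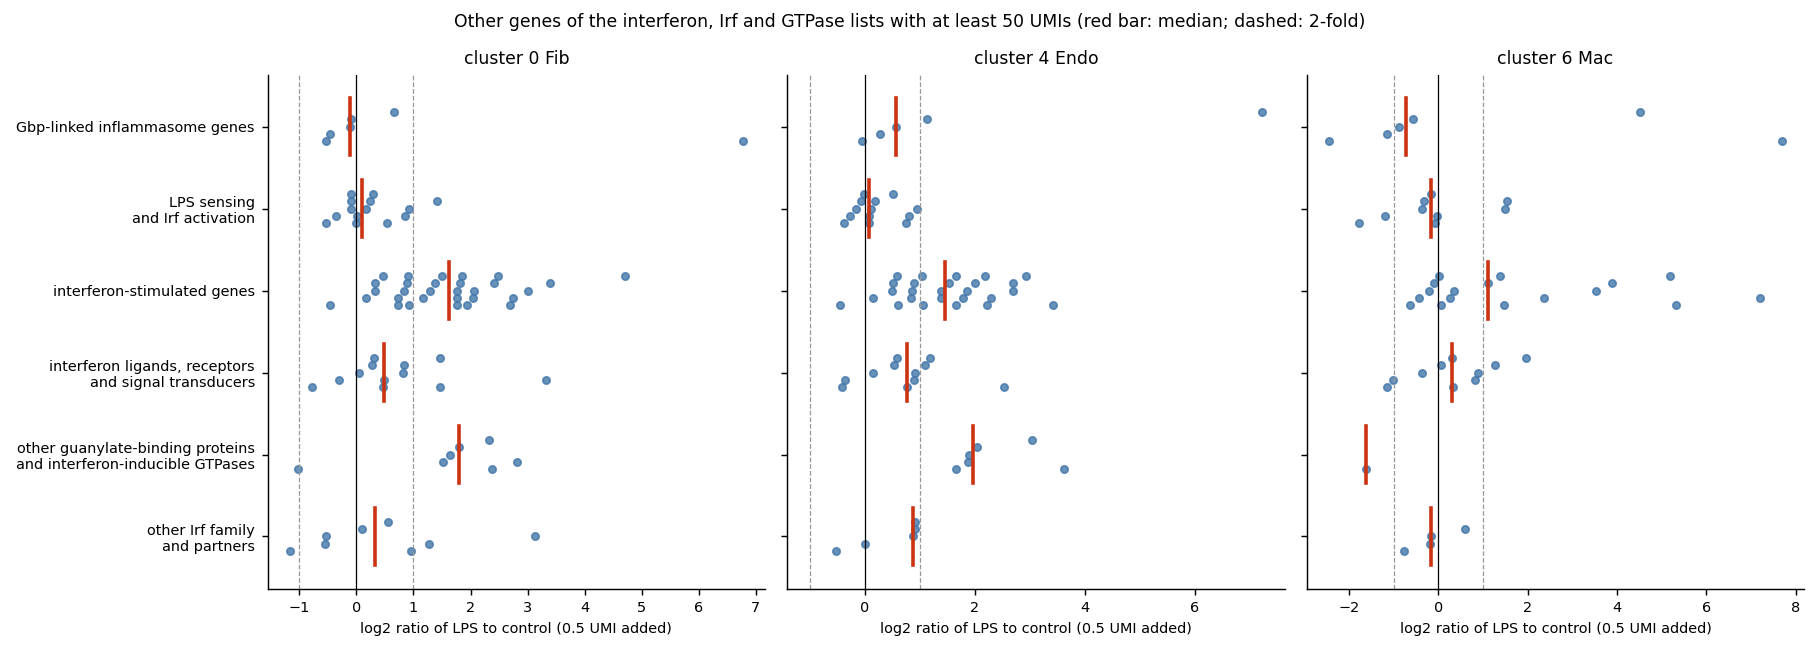
Log2 ratio of LPS to control (0.5 UMI added) of the other genes of 6 lists with at least 50 UMIs in clusters 0, 4 and 6, 1 point per gene, with the median as a red bar and 2-fold as dashed lines. The points of interferon-stimulated genes and of the GTPase list lie mostly right of 0 in clusters 0 and 4, and the single GTPase point in cluster 6 (*Ifi47*) lies at -1.63.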

How the data were processed

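Cells of 2 libraries, 1 per condition, were grouped by the cluster numbers that the authors deposited with each cell. The deposited values were raw UMI counts per gene and cell, without normalization. The submitters' processing notes name Cell Ranger 2.2.0 and Seurat 2.3.4, and the clusters came from joining both libraries with RunCCA and FindClusters. The genome build behind the counts is not given in the sources used here. Cells without a cluster (2 control, 8 LPS) were left out of the clusters. No columns of other samples were present.

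UMIs were summed per cluster and library with Python 3.11.15, numpy 2.4.6, pandas 2.3.3 and scipy 1.17.1. Levels have exact Poisson intervals, ratios exact conditional intervals, ratios of ratios normal intervals on the log scale, and shares of cells Clopper-Pearson intervals. The log2 ratio added 0.5 UMI to each sum. For a sum of 0 the stated limit is that of 3 UMIs. Cells were thinned by a draw of 3000 of their UMIs without replacement. Cells of a library are not replicates, so no p-value was computed. The code for ratios and intervals was tested on simulated data.

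Scrublet in scanpy 1.11.5 marked 10 cells of the control library (0.0867%) and 3 of the LPS library (0.0236%), under 0.5% and so taken as not having worked. Doublets therefore stayed in, and an alternative dropped the top 8% of each library by score. The others were a cell filter (at least 1000 genes, at most 20% mitochondrial UMIs), averaging the CPM of single cells, thinned sums, totals without mitochondrial genes, division by the median ratio, cells without a macrophage marker UMI, 1 UMI added, and other folds, minimums and depths of thinning. The named genes were the 8 members, the other Irf and Gbp genes listed (1 is not reported here), the 3 genes of each list with the largest absolute log2 ratio in cluster 6, and for each member the 3 genes with the highest r, among genes with at least 500 UMIs. *Casp4*, a few macrophage markers and those that make up a count were named after their values were seen. The members and lists were chosen with earlier results of these data known. Promoter sequences are from RefSeq, build GRCr8.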

Additional observations from a re-analysis of the deposited data

Results flagged for a closer look

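For *Irf2*, *Irf5* and *Irf8* the LPS-to-control ratio in macrophages went the opposite way from that in all other clusters together, with both intervals clear of 1. The share of all genes that meet this rule was not computed, so it is not known to set this group apart. The macrophage ratio divided by the ratio elsewhere was 0.456 (0.295 to 0.703) for *Irf2*, 0.139 (0.108 to 0.178) for *Irf5* and 0.00643 (0.000875 to 0.0472) for *Irf8*. With 1 library per condition these differences were not tested, and the intervals cover counting error only. The median log2 ratio over all tested genes was -0.30 in macrophages, so genes in general were lower there, and *Irf2*, at -0.71, ranked 1490th from the lowest of 6385 genes, while *Irf5* ranked 396th.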

How the results depend on the processing

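No paired analysis was possible because only 1 library was made per condition. Of 412 recomputed log2 ratios, 409 kept their sign and 391 stayed within the interval first given, and all 24 recomputed differences in shares kept their sign. The 412 values pool settings that could change little with others that could. The cell filter, 1 UMI added and totals without mitochondrial genes each kept all 52 ratios within their interval. The filter dropped no cell of clusters 0, 1, 2, 5 and 7. Thinned sums kept 39 ratios within the interval, moved 12 out of it and reversed 1. Thinned sums gave log2 ratios for *Irf1* of 2.15, 1.74, 2.23 and 2.28 (clusters 0, 1, 5, 6), for *Irf2* of -0.04, 0.46 and -1.42 (1, 4, 6), for *Irf3* of -0.08 and 0.41 (1, 4), for *Irf5* of 0.29 and 2.84 (1, 4) and for *Gbp5* of 3.26 and 4.50 (4, 7). The sign of *Irf2* in cluster 1 was thus reversed. Division by the median ratio gave 2.12 for *Irf1* and 0.19 for *Irf3* in cluster 0. Without cells with a macrophage marker UMI, *Irf5* in cluster 5 (0 control UMIs left) was 6.0, *Gbp2* 2.88 in cluster 1 and 1.61 in cluster 7, and *Gbp4* 3.75 in cluster 4. *Irf3* in cluster 7, whose interval includes 1, turned to 0.06 there. Without the cell rich in *Gbp2*, an alternative chosen after seeing the data, cluster 7 had 1.75 for *Gbp2* and 3.38 for *Gbp5*. The highest control cluster became 7 for *Irf1*, 5 for *Irf2* and 4 for *Gbp5* in thinned sums, and 5 for *Irf2* with the mean of the cells' own CPM. At 3-fold, 9 list genes were higher in macrophages. The share of all tested genes at 3-fold was not computed, so this count has no background. The causes were not tested.

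Shares of cells grow with depth. At 1500 UMIs per cell the differences in points were -10.5 and 0.2 for *Irf5* (clusters 6 and 4), -1.8 for *Irf8* (6), 7.5 and 29.6 for *Gbp2* and 18.9 and 13.9 for *Gbp5*. At 5000 UMIs they were -7.9 for *Irf8* (6), 52.0 for *Gbp2* (4) and 34.7 and 41.1 for *Gbp5*, and without thinning -35.8 and 6.7 for *Irf5*, -12.8 and 7.7 for *Irf8*, 22.3 and 50.4 for *Gbp2* and 39.5 and 47.2 for *Gbp5*. Depth limits clusters 8 to 10 and *Irf8* and *Gbp4*, whose sums were under 50 UMIs in most clusters.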

Other observations

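Cells with a *Gbp2* UMI and cells with a *Gbp5* UMI overlapped. Among LPS cells thinned to 3000 UMIs, 143 of 796 cells of cluster 4 held both, where 120.4 would if each gene were found independently of the other. In macrophages 24 of 290 cells held both, against 14.3, in cluster 0 it was 98 of 7024 cells, against 67.7, and in cluster 7 it was 31 of 144, against 24.5. Other pairs lay above the number for independent genes in some clusters and near it in others. *Irf1* with *Gbp5* was at 41 against 35.7 in cluster 4 and 11 against 11.1 in cluster 7. *Gbp5* with *Gbp4* was at 28 against 16.8 in cluster 4 and 3 against 3.23 in cluster 0. *Irf1* with *Gbp2* was at 69 against 59.9 in cluster 4 and 2 against 2.01 in macrophages. Reads that the related Gbp copies may share were not separated. These numbers describe cells of 1 library and were not tested.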
